A study of Homo sapiens with 8 samples.

Results

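The mitochondrial SLC25 carriers are a family of membrane transport proteins, and their newly made RNA is described here across 4 groups of U2OS cells, a human osteosarcoma line. The members were all genes in the deposited tables whose symbol is SLC25A followed by a number, a rule that used no measured value, and they were 48 of 19414 genes. Of these, 36 passed the filter on low reads and were tested, and 12 did not. The measurement is TT-seq, in which cells build the base analogue 4-thiouridine (4-SU) into the RNA they are making, so that recent transcription is read. The groups, of 2 libraries each, are labelled WT, Zab (genotype Zab), MYC (genotype MYC O/E, overexpression) and MYC_Zab (genotype Zab + MYC O/E). All are the same cell line. What Zab stands for as a construct is not stated in the labels. Nor do they tell whether replicates are separate cultures or clones, so a p-value here covers library-to-library spread that may be technical.

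As background, most SLC25 proteins sit in the inner mitochondrial membrane and exchange a metabolite on one side for another on the other side, which links the cytosol to the citric acid cycle, to ATP synthesis and to the making of nucleotides, haem and iron-sulphur clusters. A few act elsewhere: SLC25A17 is found in peroxisomes and SLC25A46 in the outer mitochondrial membrane. The proteins are made in the cytosol and are carried in by the TOM and TIM import complexes.

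Levels are given as CPM, reads scaled to a common library size with TMM, and changes as differences of log2(CPM + 1) with their standard error (SE). That scale understates the change of low genes, so "-fold" always means a ratio of mean CPM. Calls were made by limma, fitted on all 8 libraries, at a Benjamini-Hochberg adjusted p under 0.05 over the 11985 genes tested. Every adjusted p below comes from that fit unless another tool is named.

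The labels were first checked. The MYC gene averaged 6592 CPM in the MYC libraries, 764 in WT, 966 in Zab and 762 in MYC_Zab, so the libraries labelled MYC_Zab lacked the overexpression their label states. ADAR averaged 33906 CPM in WT and 32311 in MYC_Zab, against 543 in Zab and 455 in MYC. Groups are therefore called by label only, and all comparisons other than MYC_Zab over WT and MYC over Zab pair a group high in ADAR with one low in it. Libraries held 1839960 to 4072059 coding-exon reads, and the Zab libraries had 6.44 and 6.66 such reads per 100 tags against 13.1 to 13.8 elsewhere. The chi-square per gene between libraries was 1.99 to 2.05 within groups, 2.71 to 2.81 between WT and MYC_Zab libraries, and 25.5 to 43.0 between all other groups. Of values from 1 to 20 reads, 77.2% to 82.7% were even, so reads may have been counted in pairs. The within-group values may then be little more than counting noise, and the replicates may carry little biological spread. Among mesenchymal and bone genes, VIM (group means 1817 to 3067 CPM), SPARC, COL1A1 and RUNX2 were present, but COL1A2 had 6 reads and ALPL 34 in all, and TWIST1 had 0. Summed epithelial markers were 1.05 to 5.72 CPM, and among blood markers CD68 reached 10.1 to 37.6 CPM while CD3E was at 0.

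Summed over all 48 members, newly made carrier RNA was highest in MYC, at 2430 ± 2.02 CPM, followed by Zab at 2161 ± 19.7, WT at 1902 ± 51.9 and MYC_Zab at 1738 ± 19.1 (SD, n = 2). The place of Zab in this order depends on scaling. As a share of coding reads Zab (0.198% ± 0.0036) and WT (0.197% ± 0.0051) were within their spread, and in summed deposited values Zab was lowest (956.5 and 970.4, against 1256.1 and 1328.3 in WT). SLC25A3, SLC25A5 and SLC25A39 alone made up 41.8% of the members' reads in WT and 41.3% in MYC_Zab, 47.8% in Zab and 35.8% in MYC. Per kb of counted exon, the levels averaged over the 8 libraries were 283 CPM per kb for SLC25A5, 134 for SLC25A39, 50.2 for SLC25A10, 44.7 for both SLC25A13 and SLC25A3, and 41.6 for SLC25A1. Among the 36 tested members, the highest group mean fell to MYC for 14, to Zab for 12, to WT for 9 and to MYC_Zab for 1. The lowest was in Zab for 16, in MYC for 8, in MYC_Zab for 7 and in WT for 5. These counts were not set against all genes. WT and MYC_Zab libraries differed little from each other, so the counts are not read as particular to the carriers.

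In the libraries labelled MYC, 12 of the 36 tested carriers were higher than in WT and 1 was lower. Among the highest were the glutamate carrier SLC25A22 and the dicarboxylate carrier SLC25A10. Over all genes tested 22.2% were higher and 21.9% lower, and edgeR, which called 48.2% of all genes, called 14 carriers in all. The higher share among carriers thus stood above the background and the lower share below it. The members' median change was 0.01, against -0.01 for all genes. In the libraries labelled Zab, 7 carriers were higher than in WT and 11 were lower, against a background of 22.5% higher and 27.1% lower. Their median was -0.09 and that of all genes -0.08, and edgeR called 16 carriers and 47.5% of all genes. The 2 comparisons share their WT libraries, and their values are set side by side only. Called higher in both were 5 members (SLC25A1, SLC25A10, SLC25A22, SLC25A39 and SLC25A44). Another 4 were called higher in MYC and lower in Zab (SLC25A12, SLC25A32, SLC25A33 and SLC25A36). The share of all genes with these joint calls was not counted, so neither count is read as particular to the carriers.

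**Figure D1:**
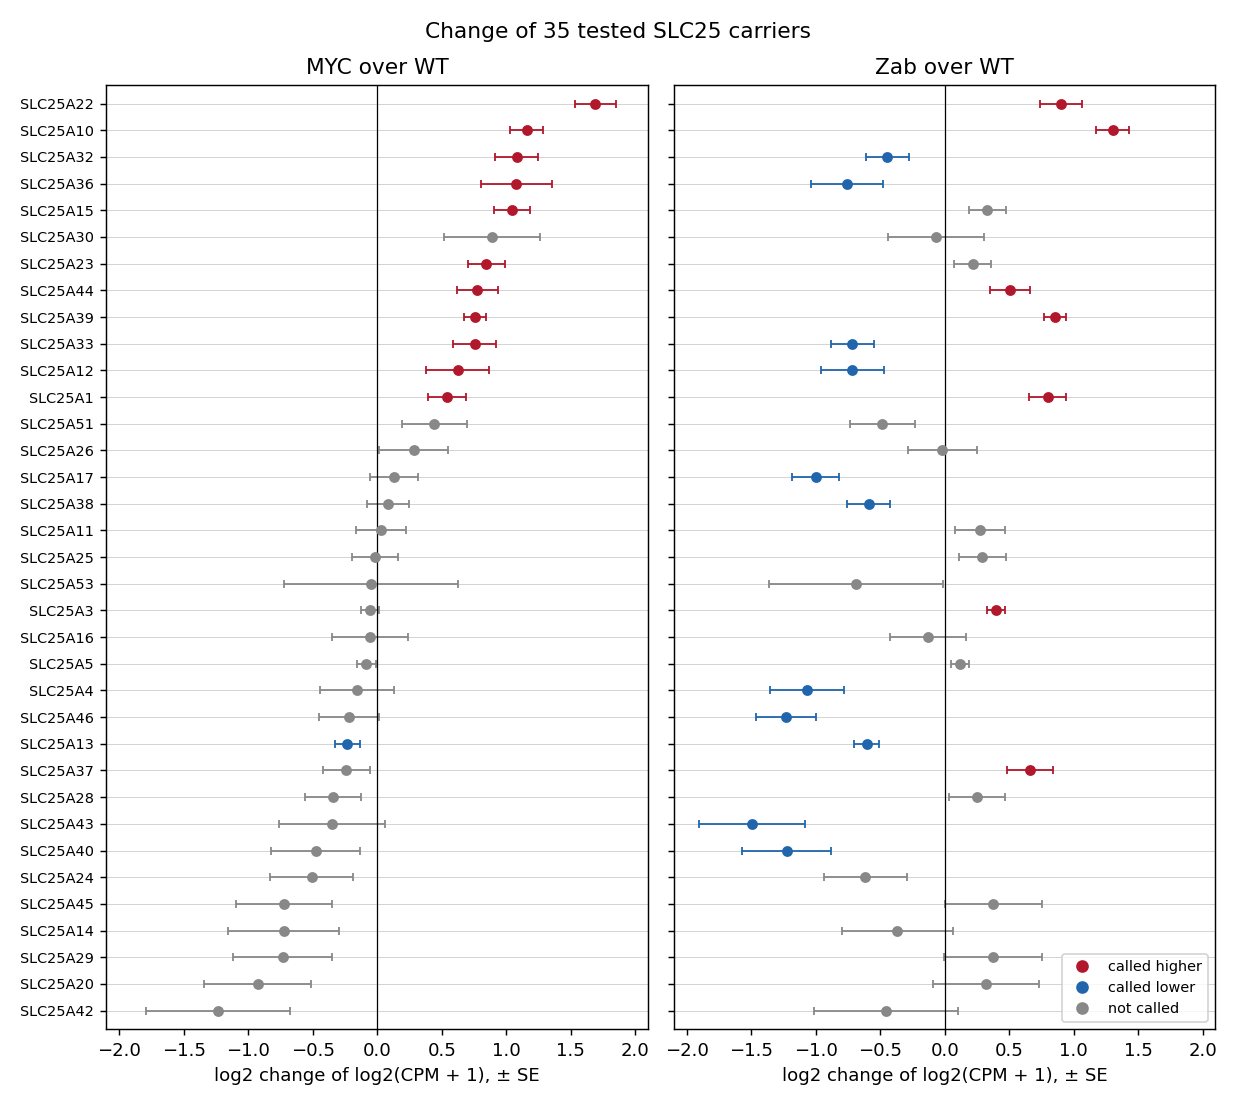
Change of log2(CPM + 1) for 35 tested carriers in MYC over WT (left) and Zab over WT (right), with bars for ± SE from the limma fit. Red points were called higher, blue lower and grey not called; 11 carriers are red on the left, and 7 are red and 11 blue on the right.

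These splits depend on scaling. On the scale of the deposited values, whose factor per library has no stated basis, the median of all genes moved to 0.47 in MYC over WT and -0.63 in Zab over WT, and the members split 22 higher and 0 lower (all genes 48.7% and 9.59%), and 2 higher and 18 lower (all genes 4.8% and 57.4%). With library totals alone the splits were 11 and 1 (19.9% and 24.1%), and 6 and 13 (15.8% and 34.6%). TMM scaling, used throughout, assumes that most genes stay level. With the WT and MYC_Zab pairs counted as 1 sample each, the calls of SLC25A12 and SLC25A13 in MYC over WT ended (adjusted p = 0.171 and 0.180), as did those of SLC25A12, SLC25A32, SLC25A36, SLC25A40 and SLC25A44 in Zab over WT (0.0569 to 0.116). DESeq2 did not call SLC25A12 and SLC25A13 in MYC over WT (0.0655 and 0.0976), or SLC25A12, SLC25A32 and SLC25A36 in Zab over WT (0.106 to 0.144).

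Of the 9 nucleotide and cofactor carriers tested, MYC over WT had 4 higher and 0 lower, and Zab over WT 0 higher and 4 lower, against the all-gene shares above (22.2% and 21.9%, and 22.5% and 27.1%). SLC25A32, SLC25A33 and SLC25A36 were called in both. SLC25A32, a carrier for folate and the flavin cofactor FAD, had 40.5 and 55.8 CPM in WT, 43.1 and 42.5 in MYC_Zab, 35.4 and 34.0 in Zab, and 92.2 and 112.3 in MYC. It rose 2.12-fold in MYC (1.08 ± 0.17, adjusted p = 5.54e-06). It was called lower in Zab (-0.44 ± 0.17, adjusted p = 0.0291), a call lost without WT replicate 2 (adjusted p = 0.388) or Zab replicate 2 (0.0740) and with edgeR (0.0510).

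SLC25A33 and SLC25A36 both carry pyrimidine nucleotides. SLC25A33 had 45.4 and 52.6 CPM in WT, 39.7 and 35.3 in MYC_Zab, 28.9 and 29.9 in Zab, and 82.4 and 83.8 in MYC. It rose 1.70-fold in MYC (0.75 ± 0.16, adjusted p = 0.000421) and fell in Zab (-0.71 ± 0.16, adjusted p = 0.000681), with no overlap between groups in either comparison. SLC25A36 had 16.2 and 12.5 CPM in WT, 13.2 and 15.4 in MYC_Zab, 7.66 and 8.38 in Zab, and 32.5 and 29.9 in MYC. It rose 2.18-fold in MYC (1.08 ± 0.28, adjusted p = 0.00229). Its fall in Zab (-0.76 ± 0.28, adjusted p = 0.0250) ended when WT replicate 1 (adjusted p = 0.178) or Zab replicate 1 (0.0524) was left out, and with edgeR (0.0515).

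The promoters of this pair are shown because both hold CACGTG, the E-box that MYC with its partner MAX is known to bind. Beside them stand SLC25A13, which also holds it, and SLC25A22, the member with the largest rise in MYC, whose printed stretch does not. The SLC25A22 transcript counted in 6 of the 8 libraries starts at 796238 (hg19, minus strand). Its printed stretch lies at 798282 to 798531 (GRCh38.p14), so it may belong to another start. Positions were not matched between the builds. Each sequence is the 250 bases before the RefSeq gene start (GRCh38.p14), 5′ to 3′ on the gene's strand, with the motif in capitals:

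SLC25A33, chr1:9539215-9539464, plus strand: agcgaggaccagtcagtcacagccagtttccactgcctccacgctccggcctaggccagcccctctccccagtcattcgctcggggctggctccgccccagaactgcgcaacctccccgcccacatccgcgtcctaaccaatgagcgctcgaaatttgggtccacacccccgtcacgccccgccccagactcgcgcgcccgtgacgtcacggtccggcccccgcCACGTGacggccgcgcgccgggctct

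SLC25A36, chr3:140941586-140941835, plus strand: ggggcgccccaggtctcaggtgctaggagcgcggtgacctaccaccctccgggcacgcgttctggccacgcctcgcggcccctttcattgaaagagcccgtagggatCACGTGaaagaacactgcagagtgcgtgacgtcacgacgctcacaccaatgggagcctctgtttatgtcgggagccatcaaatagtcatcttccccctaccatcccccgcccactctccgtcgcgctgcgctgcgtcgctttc

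SLC25A13, chr7:96322099-96322348, minus strand: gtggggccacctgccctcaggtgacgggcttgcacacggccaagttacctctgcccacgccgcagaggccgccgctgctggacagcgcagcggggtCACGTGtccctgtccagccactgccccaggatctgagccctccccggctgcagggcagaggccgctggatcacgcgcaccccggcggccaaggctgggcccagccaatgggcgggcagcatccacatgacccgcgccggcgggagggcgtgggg

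SLC25A22, chr11:798282-798531, minus strand: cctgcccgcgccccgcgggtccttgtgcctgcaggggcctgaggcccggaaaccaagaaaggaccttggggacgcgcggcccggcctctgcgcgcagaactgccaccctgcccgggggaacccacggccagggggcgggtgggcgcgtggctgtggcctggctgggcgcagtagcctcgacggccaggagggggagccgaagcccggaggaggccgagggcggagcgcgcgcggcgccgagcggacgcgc

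The first base of the motif lies 26 bases before the start in SLC25A33, 143 in SLC25A36 and 154 in SLC25A13. RefSeq promoters were matched for 40 of the 48 members. In the window from 250 bases before to 50 after the start, CACGTG, which reads the same on both strands, was present in 7 of those 40 (17.5%), against 8.93% of the promoters of genes in the files. Among tested members it was present in 6 of 31 (19.4%), against 10.3% of the promoters of tested genes. It was held by 2 of 10 members called higher in MYC over WT, 3 of 20 not called and the 1 called lower. A match describes these letters only, and a RefSeq start may differ from that of the counted transcript.

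Of the other cofactor carriers, SLC25A17, the peroxisomal member, read 59.3 and 55.4 CPM in WT, 57.6 and 49.2 in MYC_Zab, 35.96 and 22.0 in Zab, and 65.3 and 60.6 in MYC. Zab alone was low (-1.0006 ± 0.18, adjusted p = 6.01e-05), and MYC over WT was 0.13 ± 0.18 (adjusted p = 0.595). SLC25A51, which carries NAD, had 20.7 and 17.5 CPM in WT and 24.5 and 28.2 in MYC, without a call (adjusted p = 0.159). SLC25A26, which carries S-adenosylmethionine, the methyl donor, was not called in either comparison (adjusted p = 0.418 and 0.964).

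Of the 3 citrate and dicarboxylate carriers tested, SLC25A1 and SLC25A10 were called higher in both MYC over WT and Zab over WT, and SLC25A11 in neither; all-gene shares called higher were 22.2% and 22.5%. SLC25A10 exchanges malate and succinate for phosphate, and lies on the plus strand of chromosome 17 (hg19, 79679314 to 79688042). It read 52.8 and 63.3 CPM in WT, 58.9 and 51.9 in MYC_Zab, 135.6 and 152.9 in Zab, and 124.4 and 136.5 in MYC. The Zab and MYC libraries were all above the others, 2.49-fold over WT in Zab (1.30 ± 0.13, adjusted p = 2.04e-09) and 2.25-fold in MYC (1.16 ± 0.13, adjusted p = 1.83e-08). SLC25A1, which exports citrate for fatty acid and sterol synthesis, had 45.7 and 53.6 CPM in WT, 47.2 and 51.6 in MYC_Zab, 89.6 and 84.3 in Zab, and 67.9 and 77.4 in MYC. Zab was highest, 1.75-fold over WT (0.80 ± 0.14, adjusted p = 4.20e-05), a call that ended on the deposited scale (0.20, adjusted p = 0.230). MYC was 1.46-fold over WT (0.54 ± 0.14, adjusted p = 0.00301), a call that ended when WT replicate 1 (adjusted p = 0.0545) or MYC replicate 2 (0.0655) was left out. SLC25A11, the oxoglutarate-malate carrier, had 35.97 and 28.6 CPM in WT, 38.9 and 39.3 in Zab, and 31.0 and 34.6 in MYC, and was called in neither.

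Among the 7 tested amino acid carriers, MYC over WT had 4 higher and 1 lower, against 22.2% and 21.9% of all genes. Zab over WT had 2 higher and 3 lower, against 22.5% and 27.1%. SLC25A22, a glutamate carrier on the minus strand of chromosome 11 (hg19, 790475 to 796238), read 39.9 and 29.0 CPM in WT, 34.3 and 39.7 in MYC_Zab, 67.2 and 61.8 in Zab, and 105.8 and 118.7 in MYC. MYC was 3.26-fold above WT (1.69 ± 0.16, adjusted p = 1.70e-09) and Zab 1.87-fold (0.90 ± 0.16, adjusted p = 4.34e-05). The Zab call ended on the deposited scale (0.31, adjusted p = 0.0968). SLC25A15, the ornithine carrier of the urea cycle, had 44.7 and 54.7 CPM in WT, 50.4 and 49.2 in MYC_Zab, 60.1 and 64.9 in Zab, and 105.8 and 100.4 in MYC. It rose 2.07-fold in MYC (1.04 ± 0.14, adjusted p = 8.30e-07), and Zab over WT gave 0.33 ± 0.14 (adjusted p = 0.0555). SLC25A44, a branched-chain amino acid carrier, was 1.73-fold higher in MYC (adjusted p = 0.000219). It was 1.42-fold higher in Zab (0.51 ± 0.16, adjusted p = 0.00956), which was lost without WT replicate 2 (adjusted p = 0.135) and turned to -0.09 on the deposited scale.

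The aspartate-glutamate carriers of the malate-aspartate shuttle, SLC25A12 and SLC25A13, differed between the groups. SLC25A12 had 22.4 and 20.02 CPM in WT, 21.0 and 22.3 in MYC_Zab, 10.6 and 14.7 in Zab, and 31.8 and 34.6 in MYC. It was higher in MYC (0.62 ± 0.24, adjusted p = 0.0383), a call lost on leaving out any one of the 6 WT, MYC or MYC_Zab libraries (adjusted p up to 0.189). It was lower in Zab (-0.72 ± 0.24, adjusted p = 0.0162), lost without WT replicate 1 or Zab replicate 1 (up to 0.0999). SLC25A13 had 165.9 and 171.3 CPM in WT, 136.8 and 142.0 in MYC_Zab, 110.8 and 110.0 in Zab, and 146.4 and 140.7 in MYC. Zab was lowest (-0.61 ± 0.09, adjusted p = 5.50e-06). Its lower call in MYC (-0.23 ± 0.09, adjusted p = 0.0477) was lost without any one of the same 6 libraries (up to 0.204) and with the replicate number as a block (0.0521), and on the deposited scale it turned to 0.27. SLC25A38, the glycine carrier that feeds haem synthesis, had 56.4 and 80.5 CPM in WT against 40.1 and 49.2 in Zab (-0.59 ± 0.16, adjusted p = 0.00407), lost without WT replicate 2 (adjusted p = 0.163). In MYC it had 71.0 and 72.0 CPM and no call (adjusted p = 0.712).

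**Figure D2:**
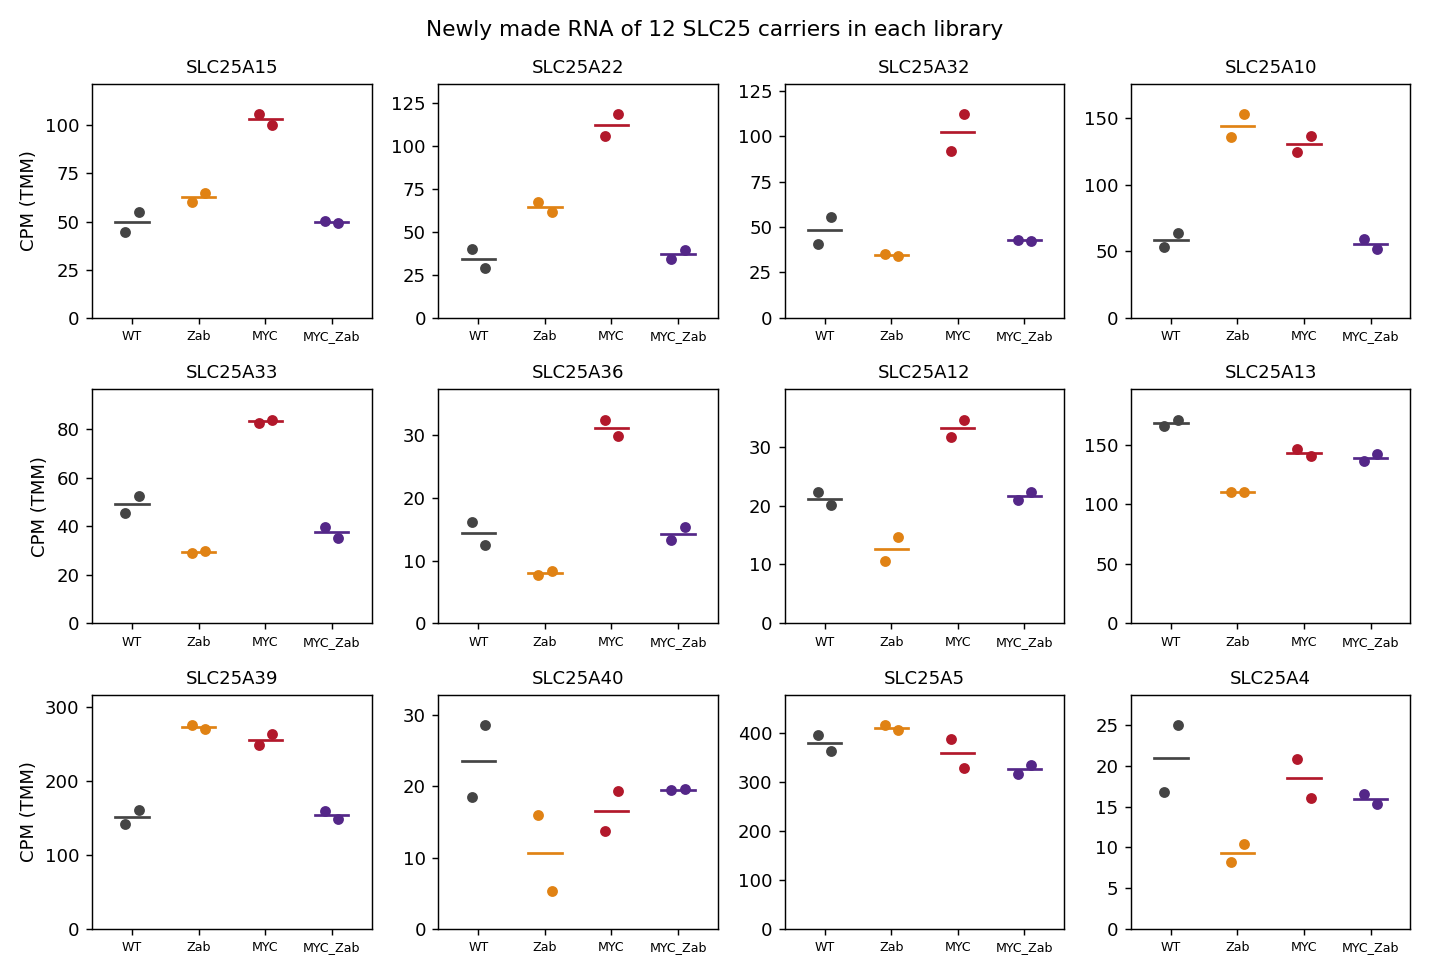
CPM of 12 carriers in each of the 8 libraries, with a point for each library and a line at each group's mean; every axis starts at 0 and has its own range. SLC25A15 and SLC25A32 are high in the MYC libraries (SLC25A32 at 92.2 and 112.3 CPM), while SLC25A10 and SLC25A39 are high in both Zab and MYC.

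Of the 5 phosphate, iron and glutathione carriers, 1 was higher and 0 lower in MYC over WT, against 22.2% and 21.9% of all genes. In Zab over WT 3 were higher and 1 lower, against 22.5% and 27.1%. SLC25A39 and SLC25A40 import glutathione. SLC25A39 had 141 and 160.5 CPM in WT, 159.6 and 147.9 in MYC_Zab, 275.3 and 270.2 in Zab, and 248.1 and 262.9 in MYC. It rose 1.81-fold in Zab (0.85 ± 0.08, adjusted p = 3.00e-09) and 1.70-fold in MYC (0.76 ± 0.08, adjusted p = 2.80e-08). SLC25A40 had 18.5 and 28.6 CPM in WT, 19.5 and 19.6 in MYC_Zab, 15.9 and 5.24 in Zab, and 13.7 and 19.3 in MYC. The Zab libraries lay far apart, and its lower call there (-1.22 ± 0.34, adjusted p = 0.00434) ended when WT replicate 2 was left out (adjusted p = 0.103), or Zab replicate 2, where the change was -0.51 (0.176).

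SLC25A3, the phosphate carrier, had 261.2 and 268.9 CPM in WT, 240.8 and 236.1 in MYC_Zab, 349.0 and 349.8 in Zab, and 257.1 and 253.0 in MYC. It was 1.32-fold higher in Zab (0.40 ± 0.07, adjusted p = 2.62e-05), but -0.21 on the deposited scale. SLC25A37 and SLC25A28, the mitoferrins, bring in iron. SLC25A37 had 33.4 and 29.7 CPM in WT, 45.7 and 45.4 in MYC_Zab, 53.0 and 47.7 in Zab, and 26.1 and 26.9 in MYC. It was called higher in Zab (0.66 ± 0.18, adjusted p = 0.00339), but on the deposited scale the change was 0.0665 (adjusted p = 0.761). SLC25A28 was called in neither comparison (adjusted p = 0.212 in MYC over WT and 0.358 in Zab over WT).

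The ADP/ATP carriers, which pass ATP out of mitochondria, had 0 of 2 tested members called in MYC over WT. Of all genes, 22.2% were called higher there and 21.9% lower. SLC25A5, the most abundant tested member, is one with many processed pseudogenes, so that its reads are uncertain. It had 394.7 and 362.9 CPM in WT, 315.8 and 334.6 in MYC_Zab, 415.6 and 405.9 in Zab, and 388.3 and 328.6 in MYC. SLC25A4, the form known from heart and muscle, had 16.9 and 25.0 CPM in WT against 8.25 and 10.5 in Zab (-1.06 ± 0.29, adjusted p = 0.00305), lost without WT replicate 2 (adjusted p = 0.0789). SLC25A6 was listed at 0 in every library. Of 18 genes that the files place on X in some libraries and on Y in others, 17 were at 0, SLC25A6 among them along with the widely expressed CD99 and VAMP7, so its 0 is not read as a low level.

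Of the 3 tested ATP-Mg/phosphate carriers, which calcium regulates, 1 was higher in MYC and 0 were called in Zab. All-gene shares higher and lower were 22.2% and 21.9% in MYC over WT, and 22.5% and 27.1% in Zab over WT. SLC25A23 had 58.0 and 81.9 CPM in WT and 121.6 and 127.8 in MYC, 1.78-fold higher (0.85 ± 0.15, adjusted p = 2.51e-05). SLC25A24 and SLC25A25 were not called (adjusted p = 0.208 and 0.953 in MYC over WT). The outer membrane member SLC25A46 read 37.6 and 27.2 CPM in WT, 31.1 and 30.3 in MYC_Zab, 11.2 and 15.2 in Zab, and 26.3 and 28.4 in MYC. It was 2.45-fold lower in Zab than in WT (-1.23 ± 0.23, adjusted p = 8.40e-05). SLC25A43 had 10.4 and 7.51 CPM in WT against 2.36 and 2.62 in Zab (-1.50 ± 0.41, adjusted p = 0.00364), lost without WT replicate 1 (adjusted p = 0.0506). SLC25A20, the carnitine-acylcarnitine carrier of fatty acid oxidation, had 8.10 and 8.58 CPM in WT, 15.3 and 7.33 in Zab, and 5.94 and 2.47 in MYC, without a call against WT (adjusted p = 0.0699 in MYC and 0.544 in Zab).

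Of the 12 members that did not pass the filter, SLC25A2, SLC25A31 and SLC25A52 had 0 reads in all 8 libraries, and SLC25A6 was listed at 0. The rest had 2 to 47 reads in total, with SLC25A35 at 47, SLC25A27 at 33 and SLC25A21 at 21 the highest.

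The libraries labelled MYC_Zab were then compared with each other group. In MYC_Zab over WT, 0 of 36 members were called by limma, where 0.576% of all genes were. The lowest adjusted p was 0.249, for SLC25A38, 6 members had an unadjusted p under 0.05, edgeR called 1 (SLC25A38, lower) and 1.22% of all genes, and DESeq2 called 0, with the adjusted p not given for 34. A missed threshold does not show that the values were equal. In MYC_Zab over MYC, 2 members were higher and 13 lower, where all genes gave 22% and 22.5%. The falls included SLC25A22 (-1.58 ± 0.16, adjusted p = 6.06e-09) and SLC25A32 (-1.23 ± 0.17, 7.00e-07). The rises were SLC25A37 (0.76 ± 0.18, adjusted p = 0.00103) and SLC25A29, a basic amino acid carrier (1.01 ± 0.38, 0.0323), the latter lost without any one of the MYC or MYC_Zab libraries (up to 0.243) and on the deposited scale (0.0669). SLC25A29 was counted on 5 transcripts over the 8 libraries, so its values may not cover the same exons. MYC was not raised in MYC_Zab (762 CPM, against 764 in WT). This comparison thus sets libraries with high MYC against libraries near the WT level. ADAR differs as well, at 32311 CPM in MYC_Zab against 455 in MYC. These differences cannot be told apart here.

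In MYC_Zab over Zab, 7 members were higher and 9 lower, against 26.8% and 22.6% of all genes. SLC25A10 (-1.37 ± 0.13, adjusted p = 7.32e-10), SLC25A39 (-0.82 ± 0.08, 5.47e-09) and SLC25A1 (-0.80 ± 0.14, 3.84e-05) fell. On the deposited scale the last 2 turned to 0.06 and 0.07, the all-gene median was 0.89, and 26 members were higher and 1 lower, against 73.5% and 1.98% of all genes. With library totals 11 were higher and 5 lower, against 35.8% and 14.5%. SLC25A46 (1.17 ± 0.23, adjusted p = 0.000144) and SLC25A17 (0.90 ± 0.18, 0.000223) rose. SLC25A40 also rose (0.9995 ± 0.34, 0.0177), a call lost without Zab replicate 2 or either MYC_Zab library (up to 0.469). The count of called members was lower when either MYC_Zab library was left out. The all-gene shares in those fits are not given, so the drop is not read as particular to the carriers.

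MYC over Zab compared groups that are both low in ADAR, and 16 members were higher and 7 lower, against 30.6% and 25.9% of all genes. The pyrimidine nucleotide carrier SLC25A36 was 3.89-fold higher (1.84 ± 0.28, adjusted p = 2.57e-06), and SLC25A32 was also higher (1.52 ± 0.17, 1.14e-08). SLC25A20 (-1.25 ± 0.41, adjusted p = 0.0117), SLC25A29 (-1.11 ± 0.38, 0.0152) and SLC25A45 (-1.10 ± 0.37, 0.0141) were lower. SLC25A29 and SLC25A45 were counted on 5 and 3 transcripts over the 8 libraries. Each of these lower calls was lost without MYC replicate 2 and without 1 of the Zab libraries (adjusted p up to 0.214, 0.253 and 0.198). On the deposited scale the all-gene median was 1.1125, the members split 29 higher and 0 lower against 75.1% and 5.0% of all genes, and the lower calls of SLC25A20, SLC25A29 and SLC25A45 ended (adjusted p 0.503 to 0.760). The interaction, MYC_Zab over MYC minus Zab over WT, was called above 0 for 5 members and below 0 for 11, against 29.3% and 24% of all genes (53.3% in all). The other 20 were not called. On the deposited scale the members split 8 and 8, against 42.1% and 15.3% of all genes, and with library totals 7 and 9, against 38.3% and 17.8%.

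Genes that work with the carriers were counted from lists, to be read against all-gene shares of 22.2% higher and 21.9% lower in MYC over WT, and 22.5% and 27.1% in Zab over WT. Of 16 tested genes of the import machinery, MYC over WT had 10 higher and 0 lower (median 0.47), and Zab over WT 2 higher and 3 lower. The import receptors TOMM20 (1.33 ± 0.15, adjusted p = 2.88e-08) and TOMM22 (0.89 ± 0.07, 5.02e-11) and the channel TOMM40 (0.89 ± 0.07, 2.97e-11) rose in MYC. Of 14 tested shuttle enzymes and partners, 5 were higher and 1 lower in MYC, and 5 higher and 4 lower in Zab. ACLY, which splits the citrate that SLC25A1 exports, rose in MYC (1.03 ± 0.05, adjusted p = 3.56e-15) and in Zab (0.47 ± 0.05, 2.27e-08). On the deposited scale its MYC rise was 1.53 (adjusted p = 2.43e-19). For Zab over WT, that scale moved the all-gene median to -0.63, from -0.08 with TMM. The Zab rise of ACLY may therefore not hold there, and its value on that scale is not given. CPT2, which acts after SLC25A20 in fatty acid oxidation, fell in MYC (-1.64 ± 0.31, adjusted p = 7.45e-05) and in Zab (-1.42 ± 0.31, 0.000364). Of 22 other mitochondrial transporters, 7 were higher and 6 lower in MYC, and 4 and 6 in Zab. Among the 6 lower in MYC were the pyruvate carrier subunits MPC1 (-0.83 ± 0.29, adjusted p = 0.0202) and MPC2 (-0.89 ± 0.22, 0.00179). Both calls ended on the deposited scale, at -0.36 for MPC1 (adjusted p = 0.283) and -0.41 for MPC2 (0.114). The 7 higher are not named here. Of 7 tested regulators of mitochondrial genes, a list that holds MYC itself, 5 were higher in MYC and 0 lower, among them the coactivator PPARGC1B (2.50 ± 0.15, adjusted p = 2.38e-13) and TFAM, which packages mitochondrial DNA (0.90 ± 0.15, 1.10e-05); in Zab TFAM fell (-1.06 ± 0.15, 8.69e-07). In MYC_Zab over WT, 0 genes of these lists were called, where 0.576% of all genes were, so this is not read as particular to the lists.

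In Zab over WT the change went with gene span, the genomic length of the counted transcript. The members' median change was 0.38 for the 9 under 10 kb, -0.09 for the 14 of 10 to 40 kb and -0.61 for the 13 of 40 kb and over. Over all tested genes these medians were 0.26, -0.01 and -0.30. Across genes, which share libraries and are not replicates, Spearman's rho between span and change was -0.57 over the 36 members and -0.30 over all 11985 genes, as a description. SLC25A1, SLC25A39, SLC25A22 and SLC25A10, called higher, span 3.16 to 8.73 kb, while SLC25A13, called lower, spans 201.93 kb. SLC25A4 (7.12 kb, lower) and SLC25A37 (46.51 kb, higher) went the other way. In MYC over WT rho was -0.24 for members and -0.06 for all genes. The Zab libraries also had the low share of coding-exon reads given above, and its part in this pattern was not tested.

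**Figure D3:**
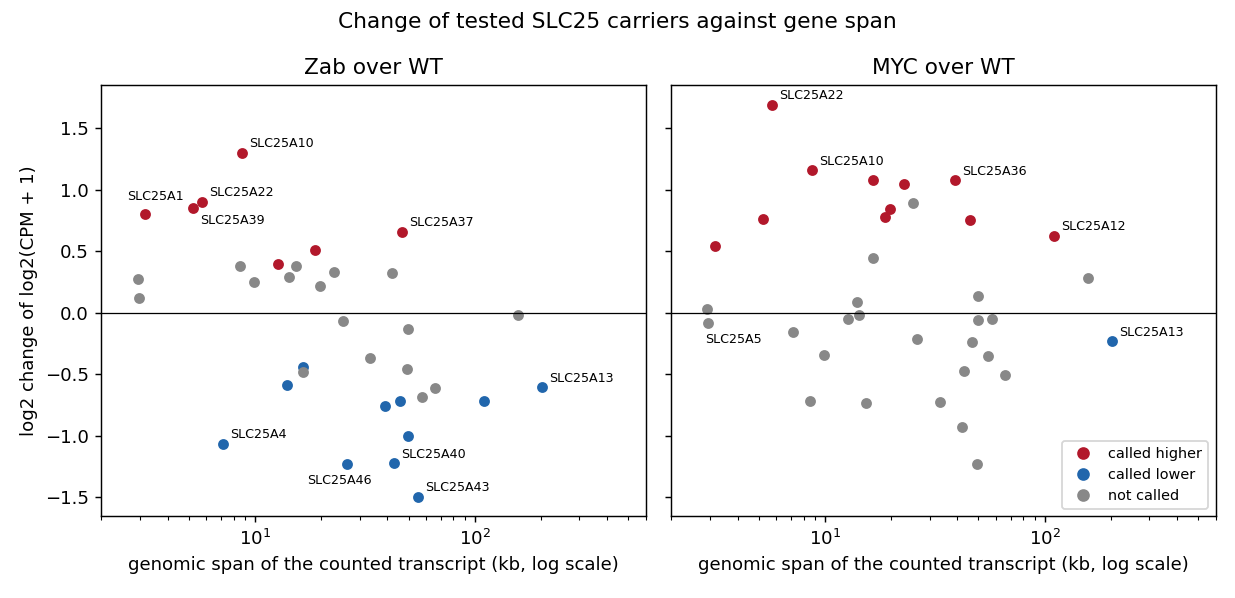
Change of log2(CPM + 1) against gene span in kb (log axis) for 35 tested carriers in Zab over WT (left) and MYC over WT (right), a point for each carrier, coloured by its call. In Zab over WT, 4 short genes (SLC25A1, SLC25A39, SLC25A22 and SLC25A10) are the highest and most genes of 40 kb and over lie below 0.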

How the data were processed

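TT-seq RNA of 8 U2OS libraries was analysed. Per the submitters' processing notes, SAMtools 1.11, bedtools 2.29.2, STAR and Trim Galore 0.6.6 were used, with builds hg19 and dm6, roles not stated. Per the file headers, the authors counted exon tags of hg19 RefSeq coding genes with HOMER on the opposite strand. They kept 1 transcript per symbol, chosen in each library. Over the 8 libraries this gave 5 transcripts for SLC25A29, 3 for SLC25A45 and 2 for SLC25A36, among others. The CPM of such members may cover different exons between groups. The deposited signal values are whole multiples of 1 step per library: 99.93% to 100% gave whole reads within 0.02, and 77.2% to 82.7% of values from 1 to 20 reads were even. What sets the step is not stated in the headers or labels.

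The test was limma 3.58.1 (trend) in R 4.3.3 on log2(CPM + 1), with TMM from edgeR 4.0.16 on the deposited values, filterByExpr (minimum 10 reads), all 8 libraries and no block (4 residual degrees of freedom). The method was also run on simulated data in which few genes changed, and only in the MYC libraries. That setting is unlike these data, so it does not test the assumption behind TMM scaling. On recovered reads edgeR and DESeq2 1.42.0 were alternatives; edgeR called 14 members in MYC over WT. Deviations of same-numbered libraries correlated at -0.03 to 0.01, so numbers do not pair samples. The members and lists were chosen with earlier results of these data known. The naming rule took the largest called changes at a mean of at least 5 CPM without overlap, plus a set list; SLC25A23 and the genes outside the family were named after their values were seen. One member that enters every fit and count is not reported by name or in the figures, nor are some marker genes.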

Additional observations from a re-analysis of the deposited data

Results flagged for a closer look

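The change between MYC_Zab and MYC differed from that between Zab and WT, by limma's interaction term, for 16 of the 36 tested carriers, where 53.3% of all genes tested were called. SLC25A10 changed by 1.30 in Zab over WT and by -1.22 in MYC_Zab over MYC (interaction -2.52 ± 0.18, adjusted p = 2.80e-12). SLC25A22 changed by 0.90 and -1.58 (interaction -2.48 ± 0.23, adjusted p = 6.26e-10). SLC25A40 changed by -1.22 and 0.25 (interaction 1.48 ± 0.49, adjusted p = 0.0124), a call lost without WT replicate 2, Zab replicate 2 or MYC replicate 1 (adjusted p up to 0.105). SLC25A46 changed by -1.23 and 0.16 (interaction 1.39 ± 0.33, adjusted p = 0.000876). MYC was not raised in the libraries labelled MYC_Zab, and ADAR was high in WT and MYC_Zab and low in Zab and MYC, so the interaction cannot be read as an effect of Zab that depends on MYC.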

How the results depend on the processing

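Of 50 named pairs of a carrier and a comparison, all called, 27 kept their direction and side of the threshold under every alternative run. The causes of the shifts below were not tested. On the deposited scale MYC over WT had 22 called members (median 0.49), where 48.7% of all genes were higher and 9.59% lower. MYC_Zab over Zab had 27 (median 0.85), where 73.5% of all genes were higher and 1.98% lower. MYC_Zab over WT had 2 higher and 0 lower (median 0.18), against 14.6% and 0.025% of all genes. MYC_Zab over MYC had 1 higher and 19 lower, against 15.5% and 33.4%. Other medians on that scale were -0.64 for Zab over WT, -0.40 for MYC_Zab over MYC, 1.36 for MYC over Zab and 0.24 for the interaction. There SLC25A13 turned to 0.27 in MYC over WT, SLC25A44 and SLC25A3 to -0.0889 and -0.21 in Zab over WT, and SLC25A39 and SLC25A1 to 0.0555 and 0.0668 in MYC_Zab over Zab. With library totals the medians were -0.0473 for MYC over WT, -0.25 for Zab over WT, -0.11 for MYC_Zab over MYC, 0.22 for MYC_Zab over Zab, 0.45 for MYC over Zab and 0.14 for the interaction. Without the filter they were -0.0091 for Zab over WT, -0.0074 for MYC_Zab over Zab, 0.19 for MYC over Zab and -0.18 for the interaction. With edgeR they were -0.0142 for Zab over WT and -0.0408 for MYC_Zab over Zab, and 1 member was called in MYC_Zab over WT. With DESeq2 they were 0.0028 for Zab over WT and -0.0601 for MYC_Zab over Zab, where 9 members were called, as with the WT and MYC_Zab pairs averaged (9). DESeq2 size factors gave -0.0271 for MYC_Zab over Zab, and a pseudocount of 5 gave 0.26 for MYC over Zab.

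Leaving out 1 library at a time gave 10 to 16 called members for MYC over WT (medians 0.0064 to 0.0997), 15 to 18 for Zab over WT (-0.12 to 0.0609), 13 to 17 for MYC_Zab over MYC (-0.33 to -0.11), 9 to 17 for MYC_Zab over Zab (-0.23 to 0.11), 0 to 0 for MYC_Zab over WT (-0.14 to -0.0344), 17 to 23 for MYC over Zab (0.19 to 0.46) and 13 to 16 for the interaction (-0.21 to -0.0666). The median turned for Zab over WT without Zab replicate 2, and for MYC_Zab over Zab without either Zab library or MYC_Zab replicate 1. The replicate numbers as a block moved no count by over 1.5 times and ended 1 named call, SLC25A13 in MYC over WT (adjusted p = 0.0521). Each fit without 1 group's libraries was chosen after seeing the data. With 2 libraries a group, members of few reads are the least certain. All-gene shares in the fits without 1 library are not given, so those counts are not read as particular to the carriers.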
